A study of Homo sapiens with 6 samples.

Results

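The loci described here are the transcribed regions to which the annotation of the study gave a position but no gene symbol. They were taken from the table of normalized read counts as the loci whose symbol field holds only dashes, which lie outside the mitochondrial genome, and whose mean over the 6 libraries was at least 10. This rule gave 4378 loci of the 74852 listed, and of the 18849 loci that reached a mean of 10. Because the level chose the members, that they are expressed is not a finding. In all, 51665 loci had no symbol, of which 36540 were at 0 in every library, 10725 were above 0 with a mean under 10, and 19 lay on the mitochondrial genome with a mean of at least 10. The 2 members just above the limit, GSHG0003683 in SHOC2 and GSHG0021343 in PIK3CA, had means of 10.0035 and 10.008, and the 2 loci just below it had means of 9.9985 and 9.9957.

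The libraries come from MDA-MB-231, a human cell line of triple-negative breast cancer. Cells received 2 rounds of siRNA transfection, either of a control pool (3 libraries, si-CTRL) or of a pool directed at SAM68 (3 libraries, si-SAM68). By the labels they were collected 24 h after the later transfection. The methods of the study give a longer time after transfection without naming a round, so that the 2 times may count from different starts. Polyadenylated RNA was sequenced, and the question addressed here is how the loci without a symbol are placed among the named loci and how they differ between si-SAM68 and si-CTRL cells. All libraries are of 1 cell line, and nothing in the labels says whether the replicates were separate cultures, so that p-values measure the spread between libraries only.

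Sam68, encoded by KHDRBS1, is an RNA-binding protein of the STAR family that binds short A- and U-rich motifs in nascent transcripts. It is known for its part in the choice of exons and of polyadenylation sites. Reads outside annotated exons of polyadenylated RNA can come from introns kept in the transcript, from transcripts that end inside an intron, from transcripts that run on past the annotated end of a gene, from divergent transcripts at promoters, and from long non-coding RNA genes. The table gives no strand and no exons, so that these kinds cannot be told apart for a single locus.

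KHDRBS1 was first compared between the groups as a check of the labels. Normalized reads on KHDRBS1 numbered 15660.4, 14483 and 14737 in the si-CTRL and 583, 602 and 670.2 in the si-SAM68 libraries, and the si-SAM68 mean was 4.13% of the si-CTRL mean. VIM and CD44, markers of the mesenchymal-like state of this cell line, and the keratins KRT8 and KRT18 were at 16628 or higher in every library, whereas ESR1, PGR, CDH1 and EPCAM, markers of hormone receptor positive or epithelial cells, had at most 15.2. KRT8 and KRT18 were among the loci that rose (adjusted p = 0.0436 and 0.0144, limma with Benjamini-Hochberg adjustment). The libraries held between 52625492 and 82568487 reads. One ribosomal RNA locus took 15.1% of the reads of si-SAM68 replicate 2 and at most 3.17% elsewhere. Of 274 named loci whose RNA mostly lacks a poly(A) tail, 95 (34.7%) were highest in that library, and 51 reached at least 2 times the highest of the other libraries. Among all 14452 named loci tested, 9.53% were highest there, and 52 reached 2 times. Several counts and medians below are therefore also given without si-SAM68 replicate 2. The members held between 1.52% and 1.75% of the reads of a library.

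Most members were a few kilobases long. The median span was 2273 bases, with quartiles of 1465.5 and 3749.5 bases, and 3069 members spanned from 1000 to under 10000 bases. A separate group of 526 members spanned under 200 bases, with 262 of them between 20 and 40 bases and 132 of exactly 32 bases. At the other end, 507 members spanned 10000 bases or more.

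**Figure D1:**
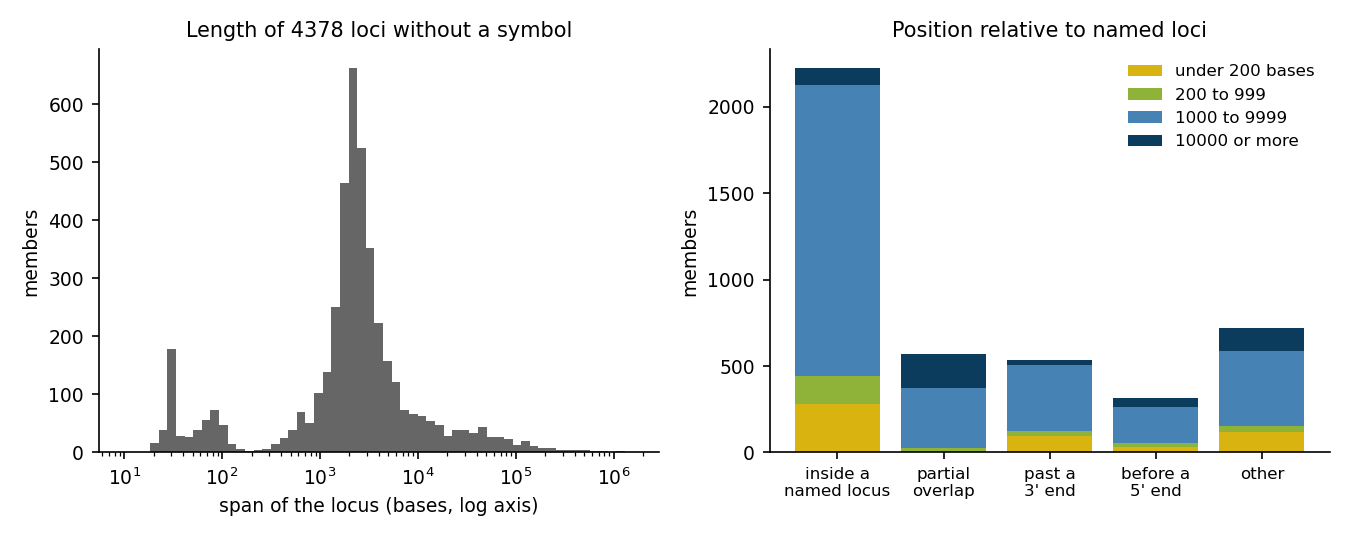
The left panel counts the 4378 members by the span of the locus in bases on a log axis, and the right panel counts them by position relative to named loci, with colours for 4 classes of length and without the 19 members on contigs that hold no named locus. Most spans lie from 1000 to under 10000 bases, a smaller group lies under 200 bases, and the largest position class, with 2223 members, is inside a named locus.

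The 3 longest and the 3 shortest members with a mean of at least 50 show the 2 ends of this range. GSHG0015314 (hg19, chr19:1383921-2563963) spanned 1180043 bases and held 88.7, 90.1 and 97.0 normalized reads in the si-CTRL libraries and 119.9, 98.4 and 84.9 in the si-SAM68 libraries. It lay within a locus named POLRMT, the mitochondrial RNA polymerase, for which the table gives a span of 3.86 Mb. GSHG0032588 (chr16:29497038-30259734), which overlapped MAPK3, had means of 1076 ± 224 (SD, n = 3) and 932 ± 57.4 (SD, n = 3) in si-CTRL and si-SAM68 cells. GSHG0133380 (chr5:69140571-69881549), which overlapped the SMN1 and SMN2 locus, had 1949 ± 329.9 (SD, n = 3) and 1809 ± 85.4 (SD, n = 3). None of these 3 passed an adjusted p of 0.05 (0.702, 0.409 and 0.641, limma with Benjamini-Hochberg adjustment). The shortest were GSHG0087655 (chr21:20230465-20230485) and GSHG0139847 (chr20:35519805-35519825, inside TLDC2), both of 21 bases, and GSHG0144421 (chr21:9827370-9827391), of 22 bases. GSHG0087655 held 86.2, 186 and 179.7 normalized reads in si-CTRL and 209.5, 183 and 225 in si-SAM68 libraries, and GSHG0139847 held 66.2, 55.2 and 58.0 and 52.4, 46.0 and 48.0. In both the groups overlapped or lay close together, and neither passed the test (adjusted p = 0.238 and 0.381, limma with Benjamini-Hochberg adjustment).

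By position, 2223 members lay entirely inside a named locus, 568 overlapped one in part, and 536 lay within 5 kb past the 3′ end of a named locus without touching it. Another 313 lay within 2 kb before a 5′ end, and 19 were on a contig that holds no named locus. The remaining 719 are called farther away below, although 16 of them lay within 1 kb of a named locus. The ends of named loci are those given by the annotation of the study. Whether other gene models place a 3′ end farther out, over members past it, was not checked. The strand of the named loci was looked up by symbol, and the strand of the members is unknown, so that a member inside a gene may be read from either strand. The inside members shared 1701 host loci, 318 of which held 2 or more, and POLRMT, with its wide span, held the most at 15. For 172 inside members the span of the host in the table was more than 2 times its span in GENCODE, and without these members the median log2 fold change of the inside members was 0.16, against 0.15 with them. Overlap with another member was found for 302 members.

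Within the named hosts the inside members were spread along the gene, with more towards the end. Of 2175 members in a host of known strand, 638 had their middle in the first, 634 in the middle and 903 in the last of 3 equal stretches. The median member covered 2.08% of the length of its host and held 2.23% of the reads of its host. Past a 3′ end, the median gap to the named locus was 1662 bases, and 188 of the 536 members lay within 1000 bases. Before a 5′ end the median gap was 244 bases. Among the 719 members farther away, 334 lay over 20 kb and 107 over 100 kb from the nearest named locus.

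The absence of a symbol does not mean that no gene is known. Members were set against GENCODE genes of another genome build (GRCh38) by the distance of both their ends from the nearest named loci. A gene whose symbol is not in the table, with both ends within 200 bases, was found for 858 members, or 19.6%. By the type GENCODE gives, 312 of them were antisense genes, 227 lincRNA genes, 140 of the type TEC, which awaits experimental evidence, 51 sense intronic transcripts and 39 pseudogenes. Protein coding genes were matched by 26, among them genes of selenoproteins (SELENOF, SELENOM, SELENOO) and of the interferon-induced 2′-5′-oligoadenylate synthetases (OAS2, OAS3). Genes with other ends, or with a symbol in the table, were not sought. These counts are therefore lower bounds, and a member without a match may still belong to a known gene, coding or not. These names rest on distances and spans, not on identifiers, and are given as candidates. The median log2 fold change was -0.00 over the 858 members with a match and 0.10 over the 3520 without one, and without si-SAM68 replicate 2 these medians were -0.02 and 0.06. Of the members without a match 1954 lay inside a named locus, and of those with one 269.

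Per kilobase of span, the median level of the members was 27.2 normalized reads, with quartiles of 8.88 and 116.3, against 38.8 for the named loci tested. The span takes in introns, and its median was 29268.5 bases for the named loci against 2273 for the members. The levels per kilobase of members and named loci are thus not a like measure. Members past a 3′ end had the highest median level per kilobase of the position classes (84.4), followed by the 19 on contigs without a named locus (77.3), those before a 5′ end (42.9), inside (24.3), farther away (22.6) and in partial overlap (16.9). The quartile ranges of these classes overlapped. The 5 members with the highest mean held 16.2% of the normalized reads of all members, and 179 members had a mean of at least 1000.

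The highest member was GSHG0136214 (chr14:50329253-50329627), of 375 bases, which lies 9462 bases before the 5′ end of NEMF. It held 48082, 113654 and 92518 normalized reads in the si-CTRL libraries and 75753, 81572 and 39521 in the si-SAM68 libraries. The groups overlapped, and the fitted log2 difference was -0.35 with a standard error of 0.33 (adjusted p = 0.527, limma with Benjamini-Hochberg adjustment). The distance match gave RN7SL2, a gene of the RNA of the signal recognition particle, which GENCODE places 9347 bases from NEMF in GRCh38. The RNA of this gene is not polyadenylated. The SD of the member within each group, 33469 and 22785 normalized reads, exceeded the difference between the group means.

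The next members were far more even between libraries. GSHG0033852 (chr15:83205507-83209191), 2761 bases past the 3′ end of CPEB1, held between 34044 and 38533 normalized reads in all 6 libraries. Its log2 fold change was 0.06, whereas CPEB1, a regulator of cytoplasmic polyadenylation, fell by 0.89 on the log2 scale (adjusted p = 0.00874, limma with Benjamini-Hochberg adjustment). GSHG0021248 (chr3:150321066-150348234), 105 bases before the 5′ end of SERP1, had 25368 ± 2266 (SD, n = 3) in si-CTRL against 28912 ± 2482 (SD, n = 3) in si-SAM68 cells. GSHG0002233 (chr1:87328130-87380107), which matched SELENOF by distance, had 19992 ± 2123 (SD, n = 3) and 23605 ± 1649 (SD, n = 3). GSHG0053978 (chr19:12754092-12754733), which matched the ribosomal protein pseudogene RPL10P16, had 17638 ± 4210.2 (SD, n = 3) and 20353 ± 1347 (SD, n = 3). A read from a pseudogene cannot be told apart from one of its parent gene where the copies are nearly identical. None of the 5 members passed an adjusted p of 0.05, the lowest being 0.132 for GSHG0002233.

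The change between si-SAM68 and si-CTRL cells was measured on log2(normalized read count + 1), a scale that understates the change of loci with few reads. With the thresholds used in the study, a fold change of 1.5 or more and an unadjusted limma p-value up to 0.05, si-SAM68 cells had 237 members (5.41%) higher and 153 (3.49%) lower. Of all loci tested, 2.83% were higher and 4.83% were lower by the same rule. The members were thus called more often than the background upwards and less often downwards, a description for which no test was made. Regulated in the text below means past this rule. At a Benjamini-Hochberg adjusted p under 0.05 from limma, 152 members were higher and 88 were lower (3.47% and 2.01%), against 4.47% and 6.23% of all loci tested. The median log2 fold change was 0.07 over the members and -0.01 over the 14452 named loci tested. Over the members it was 0.05 when si-SAM68 replicate 2 was left out, 0.03 when this was si-CTRL replicate 1 and 0.01 without both, the last an alternative chosen after seeing the data. With both left out, 177 members were regulated upwards and 205 downwards, so that upward calls no longer outnumbered downward ones. Shares of all loci tested were not taken for this setting, so that it gives no comparison with the background.

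With si-SAM68 replicate 2 left out, 186 members were regulated upwards and 186 downwards, against 2.50% and 5.02% of all loci tested. Of the 237 members regulated upwards in all libraries, 157 were also regulated upwards without that library, or 66.2% of the first list and 84.4% of the second. Of the 153 regulated downwards, 129 were also regulated downwards, which is 84.3% and 69.4% of the lists. At an adjusted p under 0.05 the counts without it were 48 and 45, against 1.45% and 2.84% of all loci tested. Leaving out si-CTRL replicate 2 raised the members regulated upwards to 420, and leaving out si-SAM68 replicate 3 lowered the adjusted counts to 32 and 25. Shares of all loci tested were not taken for these settings either.

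**Figure D2:**
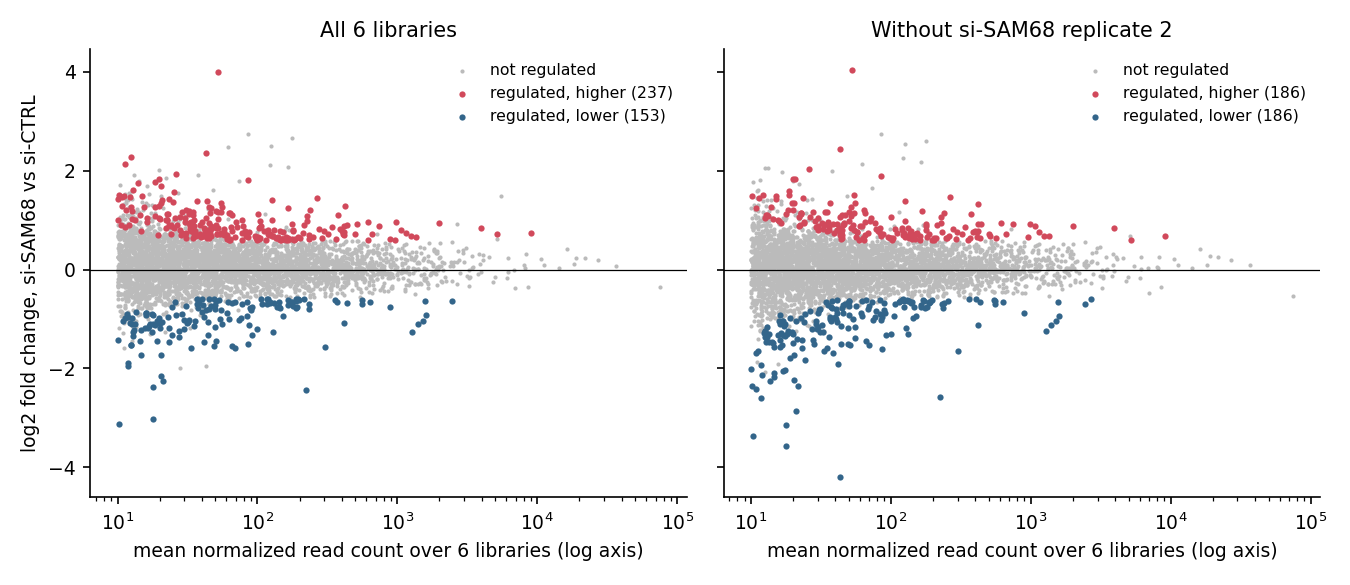
Each point is a member, by its mean normalized read count over the 6 libraries (log axis) and its log2 fold change in si-SAM68 vs. si-CTRL cells, with all libraries on the left and without si-SAM68 replicate 2 on the right. Red and blue points are regulated members, 237 higher and 153 lower on the left and 186 in each direction on the right.

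By position, the share of regulated members was highest farther from named loci, at 13.6%, against 8.82% inside a named locus and 7.67% of all loci tested. The last share is not matched for level, since the median mean was 44.2 farther away and 610 over all loci tested. Of named loci with a mean from 10 to 29, 14.6% were regulated. From 30 to under 100 this was 19.6%, from 100 to under 300 it was 15.3%, and at 300 or more 3.93%. Pooled over level and direction, the share farther away was below that of named loci at each level under 300. Farther away, 44 members were regulated upwards and 54 downwards (6.12% and 7.51%), and the median log2 fold change was 0.00. In order of level, 4.09%, 4.70%, 3.86% and 1.27% of named loci were regulated upwards, and 10.5%, 14.9%, 11.4% and 2.66% downwards. The upward share farther away was above that of named loci at each level. The downward share was below that of named loci at each level under 300. Inside named loci, 147 were regulated upwards and 49 downwards (6.61% and 2.20%), 64.8% had a log2 fold change above 0, and the median was 0.15. The upward shares inside named loci and farther away were thus close, and these classes differed in the downward share. Past a 3′ end, 22 were regulated upwards and 18 downwards (4.10% and 3.36%), with a median of 0.12. Before a 5′ end there were 8 and 6 (2.56% and 1.92%, median -0.04), and in partial overlap 16 and 26 (2.82% and 4.58%, median -0.02). Leaving out si-SAM68 replicate 2, 4.77% of the inside members were regulated upwards and 3.64% downwards, against 4.45% and 7.37% farther away. In these bulk libraries, a change in the share of cells with such a transcript and a change in its amount per cell cannot be told apart.

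The level of the inside members differed between libraries of the same group. As the median deviation from the mean of the 6 libraries, it was -0.15, 0.07 and -0.09 (log2) in the si-CTRL libraries, in order of replicate number, and -0.00, 0.18 and 0.06 in the si-SAM68 libraries. The groups overlapped, since si-CTRL replicate 2 lay above si-SAM68 replicates 1 and 3, whereas in each of the 3 same-numbered pairs the si-SAM68 library was the higher. The highest value of an inside member fell in si-SAM68 replicate 2 for 663 of 2223 members, or 29.8%, and the lowest in si-CTRL replicate 1 for 686. Without si-SAM68 replicate 2, the median log2 fold change of the inside members was 0.08, with 106 regulated upwards and 81 downwards, and without si-CTRL replicate 1 it was 0.09. With both libraries left out it was 0.03, with 100 regulated upwards and 90 downwards. The part of these libraries in the result was not tested further.

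Members past a 3′ end showed the same order in part. Their median deviation was -0.12, 0.02 and -0.01 in the si-CTRL libraries and 0.01, 0.09 and 0.11 in the si-SAM68 libraries, higher in si-SAM68 in each same-numbered pair. The lowest value of such a member was in si-CTRL replicate 1 for 35.3% of the 536. The median log2 fold change without si-SAM68 replicate 2 was 0.10, with 23 members regulated upwards and 15 downwards. Over the 502 members with a tested neighbour the median was 0.12, and 0.05 without both si-SAM68 replicate 2 and si-CTRL replicate 1. At an adjusted p under 0.05 (limma), 35 of the 536 were higher and 14 lower, or 6.53% and 2.61%. Of all loci tested, 4.47% and 6.23% were. Without si-SAM68 replicate 2, 7 were higher and 6 lower, against 1.45% and 2.84% of all loci tested. The named loci tested varied by at most 0.02 in the median deviation.

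**Figure D3:**
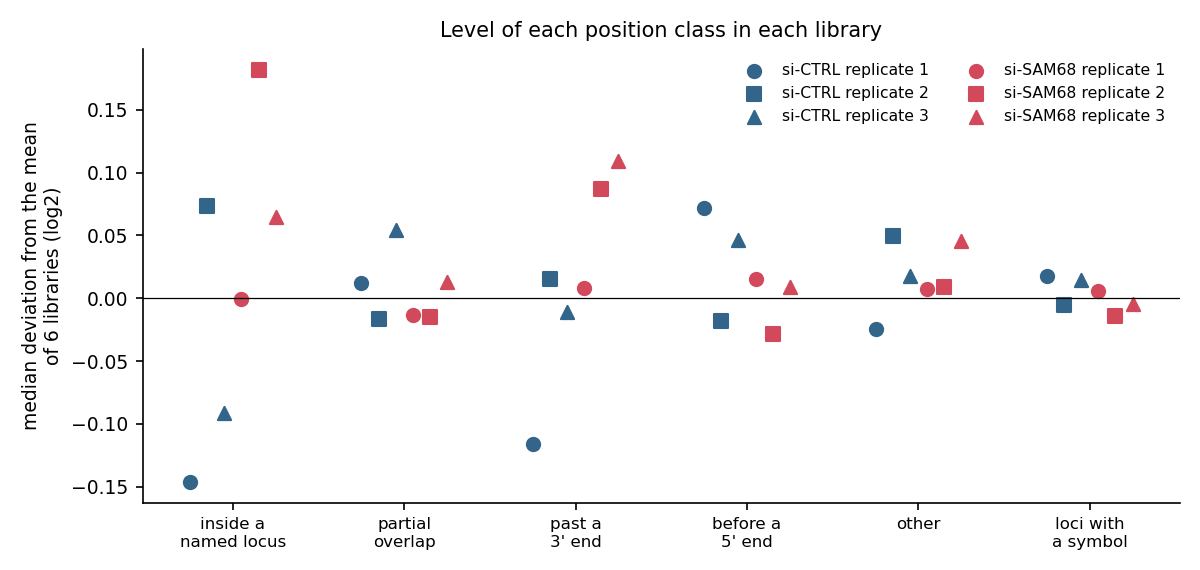
Each symbol is 1 library and gives the median, over the members of a position class or over the named loci tested, of the deviation of log2(normalized read count + 1) from the mean of the 6 libraries. Inside members range from -0.15 in si-CTRL replicate 1 to 0.18 in si-SAM68 replicate 2, and the other classes and the named loci lie closer to 0.

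Several members inside named loci rose while their host did not pass the test. GSHG0143443 (chr8:66637223-66639000), of 1778 bases, lies 90.9% of the way along PDE7A, which encodes a cyclic AMP phosphodiesterase. It held 36.2, 36.8 and 38 normalized reads in the si-CTRL libraries and 127, 118 and 156 in the si-SAM68 libraries. All si-SAM68 libraries lay far above all si-CTRL libraries, with a fitted log2 difference of 1.81 (SE 0.19, adjusted p = 0.000727, limma with Benjamini-Hochberg adjustment). PDE7A itself had -0.35 (adjusted p = 0.0519, limma). The member had 1.90 without si-SAM68 replicate 2 (adjusted p = 0.00264, limma).

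GSHG0017702 (chr2:70016684-70026080) lies in ANXA4, the gene of a calcium-dependent phospholipid-binding protein. It held 75, 69.7 and 62.7 normalized reads in si-CTRL and 187, 189 and 179 in si-SAM68 libraries. The groups were well apart, with a fitted log2 difference of 1.41 (SE 0.15, adjusted p = 0.000812), whereas ANXA4 had -0.05 (adjusted p = 0.736, both from limma with Benjamini-Hochberg adjustment). GSHG0031052 (chr9:111843400-111845685) in TMEM245 held 210.0, 282 and 241 normalized reads in si-CTRL and 531, 572 and 690.3 in si-SAM68 libraries. It rose by 1.29 on the log2 scale (adjusted p = 0.00101, limma with Benjamini-Hochberg adjustment), and TMEM245 had 0.10. GSHG0024815 (chr5:59922547-59924836) in DEPDC1B, a regulator of adhesion at mitosis, held 72.5, 113 and 110.3 in si-CTRL and 214, 258 and 228 in si-SAM68 libraries. It rose by 1.25 on the log2 scale (adjusted p = 0.00416, limma with Benjamini-Hochberg adjustment). DEPDC1B itself had 0.20 (adjusted p = 0.130, limma). These 4 members kept an adjusted p under 0.05 with each library left out.

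The other 3 of the largest increases inside hosts had fewer reads. GSHG0138408 (chr19:44346210-44348394) in the zinc finger gene ZNF283 held 20, 35.8 and 35.2 normalized reads in si-CTRL and 69.5, 61.6 and 105 in si-SAM68 libraries, with a log2 fold change of 1.35 (adjusted p = 0.0200, limma with Benjamini-Hochberg adjustment). It had an adjusted p of 0.0628 without si-SAM68 replicate 1 and of 0.105 without replicate 3. GSHG0021258 (chr3:152020304-152020588), of 285 bases, lies in MBNL1, itself a gene of a splicing regulator. It held 18.7, 51.3 and 35.2 normalized reads in si-CTRL and 69.5, 78.2 and 76.0 in si-SAM68 libraries, with a log2 fold change of 1.17. GSHG0135956 (chr13:28003948-28006057) lies in GTF3A, the gene of transcription factor IIIA, and held 36.2, 20.3 and 38 in si-CTRL and 54.4, 61.6 and 102 in si-SAM68 libraries, with a log2 fold change of 1.17. The last 2 had adjusted p-values of 0.0471 and 0.0432 (limma with Benjamini-Hochberg adjustment). Without si-SAM68 replicate 2 these were 0.132 and 0.0899, and without si-SAM68 replicate 1 they were 0.115 and 0.0720. Without si-SAM68 replicate 3 they were 0.163 and 0.185, and without si-CTRL replicate 3 they were 0.0843 and 0.0561. Without si-CTRL replicate 2, that of GSHG0135956 was 0.0901.

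Among the largest decreases, 2 members lay inside hosts. GSHG0136791 (chr15:83781492-83783581) in TM6SF1 held 124, 93.9 and 93.2 normalized reads in si-CTRL and 50.4, 30.4 and 24.6 in si-SAM68 libraries. Its host was hardly expressed, with at most 3.68 normalized reads in a library. The member fell by 1.59 on the log2 scale (SE 0.28, adjusted p = 0.00765, limma with Benjamini-Hochberg adjustment). GSHG0143478 (chr8:95999109-96001394) in NDUFAF6, an assembly factor of respiratory complex I, held 130.0, 131 and 133 in si-CTRL and 62.5, 51.5 and 43.6 in si-SAM68 libraries. It fell by 1.32 on the log2 scale (adjusted p = 0.00271, limma with Benjamini-Hochberg adjustment), and NDUFAF6 had -0.05 (adjusted p = 0.847).

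**Figure D4:**
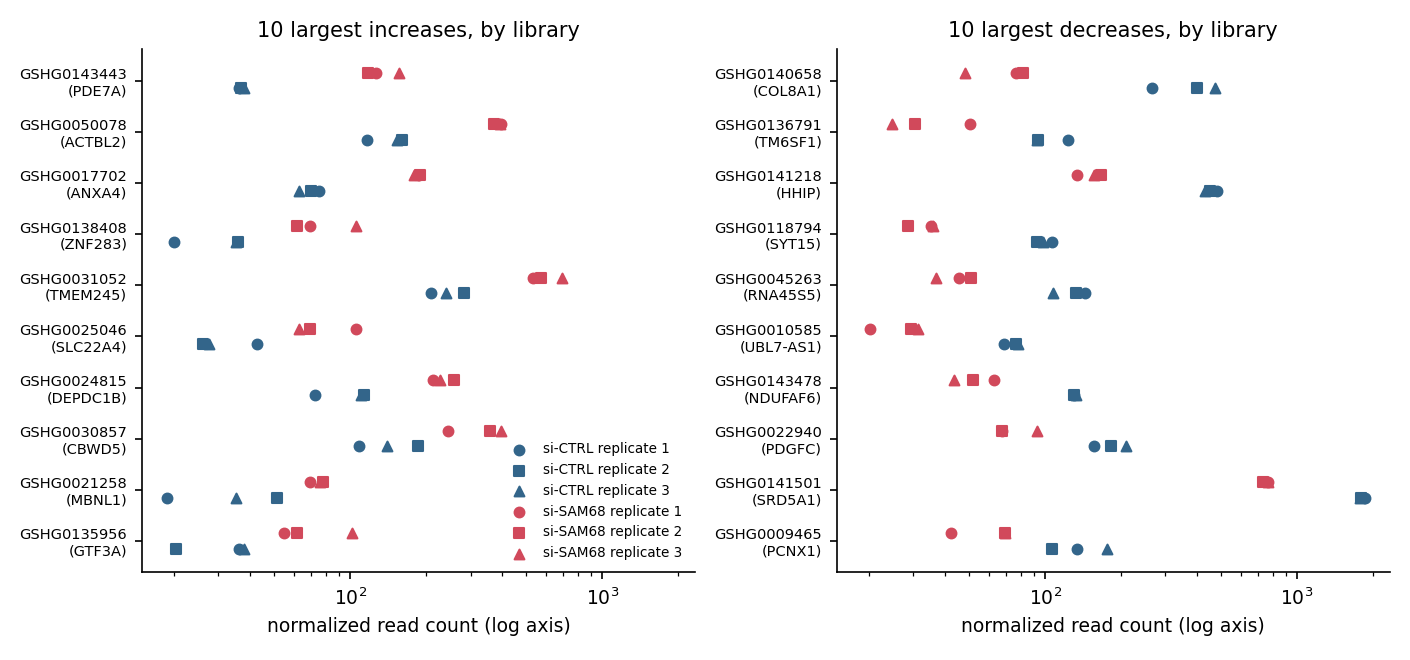
The 10 members with the largest increases (left) and decreases (right), chosen by the named-loci rule, are plotted by library, with the normalized read count on a log axis, si-CTRL in blue, si-SAM68 in red and the named neighbour in brackets. The 2 groups do not overlap in any of the 20 members, which the rule required.

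Across all inside members with a tested host, 2105 pairs on 1617 hosts, the log2 fold change of the member exceeded that of its host by a median of 0.18. The member was above its host in 67.1% of pairs, and in 60.2% without si-SAM68 replicate 2. The median difference was 0.12 without that library, and 0.04 without both si-SAM68 replicate 2 and si-CTRL replicate 1. Compared by replicate number, the median difference was 0.21, 0.14 and 0.18 in replicates 1, 2 and 3. The log2 ratio of member to host was also taken by library, as the median deviation from the mean of the 6 libraries. It was -0.22, 0.08 and -0.09 in si-CTRL and 0.01, 0.20 and 0.07 in si-SAM68 replicates 1, 2 and 3. The groups overlapped, since si-CTRL replicate 2 lay above si-SAM68 replicates 1 and 3. As a description, Pearson's r between the log2 fold changes of member and host was 0.16 over these pairs, which share the same 6 libraries. Of the 140 upward regulated inside members with a tested host, the host was regulated upwards for 2 and downwards for 1. Of the 43 regulated downwards, the host was regulated downwards for 2. Among all 2105 pairs, 0.950% of the hosts were regulated upwards and 3.04% downwards. By the adjusted p alone, the host was lower for 9 of the 43 and higher for 11 of the 140, against 7.60% lower and 5.23% higher among all pairs, and the hosts of the 43 had a median log2 fold change of -0.18.

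Among members past a 3′ end, decreases were in part shared with the named neighbour. Of the 18 regulated downwards, 7 had a neighbour that was regulated downwards, against 3.19% of the neighbours of all 502 tested pairs. Of the 22 regulated upwards, 21 had a tested neighbour, and 1 of these was regulated upwards. Pearson's r between member and neighbour was 0.36 and Spearman's rho 0.33 over the 502 pairs, as a description. In members with a mean of at least 50, r was 0.48 over 298 pairs. By distance, r was 0.43 over 91 pairs within 500 bases, 0.48 over 89 pairs up to 1000 bases, 0.44 over the pairs up to 2000 bases and 0.24 over 221 pairs up to 5000 bases.

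**Figure D5:**
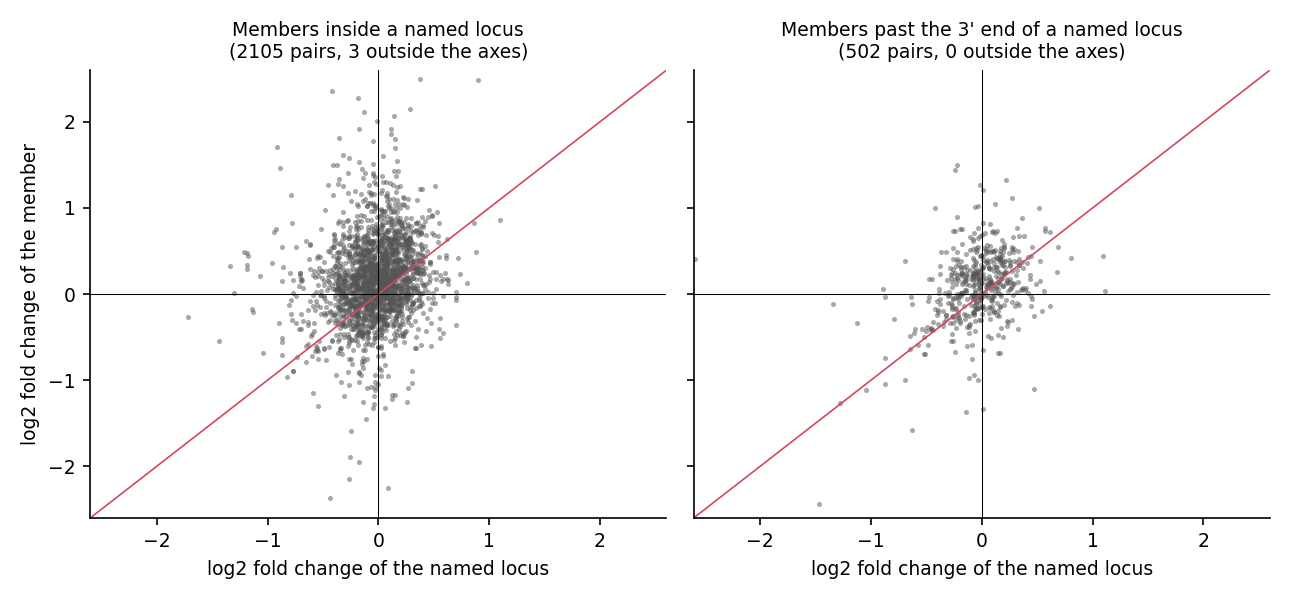
Each point is a member with its named neighbour, by the log2 fold change of the named locus and that of the member in si-SAM68 vs. si-CTRL cells, with members inside a named locus on the left (2105 pairs, 3 of them outside the axes) and members past a 3′ end on the right (502 pairs). The red line marks equal change. Inside members scatter above the line by a median of 0.18, and members past a 3′ end by a median of 0.12.

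The largest decrease among the members named by the rule was past COL8A1, the gene of a collagen of the extracellular matrix. GSHG0140658 (chr3:99516298-99518054) begins 721 bases past its 3′ end and held 266, 402 and 471 normalized reads in si-CTRL and 76.6, 81.9 and 48.0 in si-SAM68 libraries. The lowest si-CTRL library was far above the highest si-SAM68 library, with a fitted log2 difference of -2.44 (SE 0.25, adjusted p = 0.000740, limma with Benjamini-Hochberg adjustment). COL8A1 fell by 1.47 on the log2 scale, from 1317 ± 210.0 to 472 ± 28.3 (SD, n = 3 each). The member had -2.59 on the log2 scale without si-SAM68 replicate 2.

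The member with the lowest p-value of this class lies 1546 bases past the end that the annotation gives for SRD5A1, a steroid 5-alpha reductase. GSHG0141501 (chr5:6671219-6674476) held 1852, 1793 and 1781 normalized reads in si-CTRL and 767, 731 and 763 in si-SAM68 libraries. It fell by 1.26 and SRD5A1 by 1.28 on the log2 scale (adjusted p = 7.43e-05 and 0.000186, limma with Benjamini-Hochberg adjustment). Member and gene thus changed by nearly the same factor, and the member held 60.7% of the reads of the gene. GSHG0141218 (chr4:145660789-145666422), 903 bases past HHIP, an inhibitor of hedgehog signalling, held 479.9, 449 and 433 in si-CTRL and 134, 166 and 156 in si-SAM68 libraries. It fell by 1.57 on the log2 scale and HHIP by 0.63 (adjusted p = 0.000207 and 0.0312, limma with Benjamini-Hochberg adjustment).

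One of the 10 largest increases lay past a 3′ end. GSHG0025046 (chr5:131680374-131684433), 477 bases past the organic cation transporter gene SLC22A4, held 42.5, 26.2 and 27.6 normalized reads in si-CTRL and 106, 69.0 and 62.6 in si-SAM68 libraries. It had a fitted log2 difference of 1.27 (SE 0.28, adjusted p = 0.0199, limma with Benjamini-Hochberg adjustment), whereas SLC22A4 had -0.01. The adjusted p was 0.0566 without si-CTRL replicate 3, and 0.0811, 0.0502 and 0.0569 without si-SAM68 replicates 1, 2 and 3.

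Before a 5′ end, the member with the lowest p-value was GSHG0134055 (chr1:146647181-146649319), 111 bases before PDIA3P1, a pseudogene of a protein disulfide isomerase. It held 257, 351 and 316 normalized reads in si-CTRL and 546, 562 and 609.9 in si-SAM68 libraries. All si-SAM68 libraries were higher, with a log2 fold change of 0.90 (adjusted p = 0.00332), and PDIA3P1 rose by 0.49 (adjusted p = 0.0334, both from limma with Benjamini-Hochberg adjustment). In partial overlap, GSHG0118794 (chr10:46951472-46966835) held 106, 93.0 and 97.9 in si-CTRL and 35.3, 28.5 and 35.7 in si-SAM68 libraries. It fell by 1.55 on the log2 scale (adjusted p = 0.00165, limma with Benjamini-Hochberg adjustment), while SYT15, which it overlaps, had at most 2.23 normalized reads in a library. GSHG0010585 (chr15:74770411-74782627), which overlaps UBL7-AS1, held 68.7, 76.5 and 78.0 in si-CTRL and 20.1, 29.4 and 31.3 in si-SAM68 libraries. It fell by 1.45 on the log2 scale (adjusted p = 0.00589, limma with Benjamini-Hochberg adjustment), while UBL7-AS1 had 0.40 (adjusted p = 0.379).

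Farther from named loci, GSHG0050078 (chr5:56946487-56966816) spanned 20330 bases at 167849 bases from ACTBL2. It held 116, 161 and 153 normalized reads in si-CTRL and 397, 371 and 393 in si-SAM68 libraries, and rose by 1.44 on the log2 scale (SE 0.15, adjusted p = 0.000719, limma with Benjamini-Hochberg adjustment). GSHG0030857 (chr9:70640711-70642587), 150500.0 bases from CBWD5, held 109, 185 and 139.7 in si-CTRL and 245, 358 and 398 in si-SAM68 libraries, with a log2 fold change of 1.20 (adjusted p = 0.0109, and 0.0711 without si-SAM68 replicate 3, limma with Benjamini-Hochberg adjustment). This stretch of chromosome 9 holds near-identical copies, which can share reads. In the other direction, GSHG0133255 (chr17:45128660-45131432), 23657 bases past GOSR2, held 2132, 2052 and 1943 in si-CTRL and 979, 972 and 1005 in si-SAM68 libraries. It fell by 1.05 on the log2 scale (adjusted p = 0.000185, limma with Benjamini-Hochberg adjustment), and GOSR2 had -0.32 (adjusted p = 0.0940).

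A further 3 of the largest decreases were of this class. GSHG0022940 (chr4:157507131-157511181), which matched a lincRNA gene by distance, held 156, 182 and 209 normalized reads in si-CTRL and 67.5, 67.2 and 92.7 in si-SAM68 libraries, with a log2 fold change of -1.26. GSHG0009465 (chr14:71607842-71609970), also matched to a lincRNA gene, held 134, 107 and 176 in si-CTRL and 42.3, 69.0 and 69.3 in si-SAM68 libraries, with a log2 fold change of -1.20. Their adjusted p-values were 0.00356 and 0.0168 (limma with Benjamini-Hochberg adjustment), and that of GSHG0009465 was 0.0565, 0.0575 and 0.0547 without si-CTRL replicate 3, si-SAM68 replicate 1 and si-SAM68 replicate 3. GSHG0045263 lies on the unplaced contig of the ribosomal RNA repeat, 14998 bases from the locus of the 45S precursor, and held 144, 133 and 107 in si-CTRL and 45.3, 50.6 and 36.9 in si-SAM68 libraries. It fell by 1.51 on the log2 scale (adjusted p = 0.00212, limma with Benjamini-Hochberg adjustment), whereas the 45S locus, high in si-SAM68 replicate 2, had 0.82 (adjusted p = 0.459). Of the 19 members on contigs without a named locus, none was called by either rule. The lowest p-value there was that of GSHG0028763, of 4222 bases, with 4156 ± 497 (SD, n = 3) in si-CTRL against 4932 ± 355 (SD, n = 3) in si-SAM68 cells.

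In 40 members si-SAM68 replicate 2 reached at least 2 times the highest value of the other 5 libraries, and 35 of the 40 lay inside a named locus. The share was 0.914% of the members and 0.360% of the named loci tested, 52 in number. These shares are not matched for level, since the 40 members had a median mean of 14.8 and the 52 named loci one of 160. Only 2 of the 40 had a mean of at least 50, a level that 2087 members reached, against 44 of the 52 named loci. GSHG0100534 (chr6:52860617-52860691), of 75 bases, reached 12463 normalized reads in si-SAM68 replicate 2, whereas the other libraries had 477 to 962. It lies 439 bases before the 5′ end of GSTA4, and in GRCh38 the gene of the 7SK small nuclear RNA, RN7SK, spans 328 bases from 243 bases before GSTA4. GSHG0144421, of 22 bases, held 25687 in the same library and between 637 and 2091 in the others. Their log2 fold changes of 0.92 and 1.48 became -0.59 and 0.08 without si-SAM68 replicate 2, and neither passed the test with or without it (adjusted p from 0.107 to 0.936, limma with Benjamini-Hochberg adjustment). Fitted by edgeR on the recovered reads of all libraries, the log2 fold changes were 2.45 and 2.69.

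The next members by this ratio stayed under 2. GSHG0135387 (chr11:65266958-65268504) inside MALAT1, an abundant nuclear long non-coding RNA, was listed at 0 in si-CTRL replicate 1 and held 50.4 and 60.8 in the other si-CTRL libraries and 67.5, 134 and 59.2 in the si-SAM68 libraries. MALAT1 itself reached 150775 in si-SAM68 replicate 2, whereas the others had 35022 to 48033. GSHG0014896 in ACTN4 held 165 in si-SAM68 replicate 2 and at most 85.2 elsewhere. GSHG0002753, 23371 bases from RC3H1, held 96.6 there and at most 52.3 elsewhere.

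The share of regulated members differed with span and level. Of members under 200 bases, 11 were regulated upwards and 11 downwards (2.09% each), and from 1000 to under 10000 bases 195 and 100 (6.35% and 3.26%). At 10000 bases or more, 18 were regulated upwards and 30 downwards, with a median log2 fold change of -0.03. By level, 58 and 57 of the 1634 members with a mean from 10 to 29 were regulated upwards and downwards, and 29 and 15 of the 630 members with a mean of at least 300. Without si-SAM68 replicate 2, the members from 10 to 29 gave 38 upwards and 71 downwards, whereas those of at least 300 gave 30 and 17. With all libraries, 3.55% of the members from 10 to 29 and 4.09% of the 1051 named loci of that level were regulated upwards, and 3.49% and 10.5% downwards. From 30 to under 100, 7.14% of the members and 4.70% of the named loci were regulated upwards, and 3.91% and 14.9% downwards. From 100 to under 300 these shares were 7.02% and 3.86% upwards, and 3.70% and 11.4% downwards. At a mean of at least 300, 4.60% of the members and 1.27% of the named loci were regulated upwards, and 2.38% and 2.66% downwards.

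The number of members on a placed chromosome ranged from 41 on chromosome 21 to 420 on chromosome 1. They made up between 16.2% of the tested loci on chromosome 19 and 27.3% on chromosome 16. In 52 members at least 1 library was listed at 0, and in 0 members a whole group.

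Of the 26 members that matched a protein coding gene by distance, 1 was higher and 3 were lower at an adjusted p under 0.05 (limma with Benjamini-Hochberg adjustment), against 4.47% and 6.23% of all loci tested. The candidate for OAS3 had 7844 ± 392 (SD, n = 3) normalized reads in si-CTRL against 6036 ± 679 (SD, n = 3) in si-SAM68 cells, with a log2 fold change of -0.38. The neighbouring candidate for OAS2 had 1118 ± 256 (SD, n = 3) and 665 ± 143 (SD, n = 3), with a log2 fold change of -0.75. Both encode interferon-induced enzymes that sense double-stranded RNA. The candidate for NFE4 had 99.1 ± 8.09 (SD, n = 3) and 49.7 ± 14.4 (SD, n = 3), with a log2 fold change of -1.02. The candidate for EXD2, a nuclease, had 1389 ± 185 (SD, n = 3) and 1992 ± 96.7 (SD, n = 3), with a log2 fold change of 0.53. Their adjusted p-values were 0.0293, 0.0334, 0.0234 and 0.0155 (limma with Benjamini-Hochberg adjustment), and these 4 were singled out after their values were seen. Without si-SAM68 replicate 2 the adjusted p was 0.0680 for NFE4 and 0.0662 for EXD2 (limma).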

How the data were processed

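The authors deposited 1 table of signal values, which are reads counted on each locus of the FAST DB annotation (hg19, without strand) divided by the DESeq2 size factor of the library. STAR 2.4.0, Picard, SAMtools and FastQC are named in the submitters' processing notes, and the counting program and its use of strand are not given in the sources used here. Each value was a whole multiple of the smallest step in its library (100% of values within 0.01 reads), which recovered 52625492 to 82568487 reads per library. In si-SAM68 replicate 1 this step is too close to 1 for an automatic test.

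Loci with a mean of at least 10 (18849) were tested with limma 3.58.1 (R 4.3.3) on log2(value + 1), with a variance trend and Benjamini-Hochberg adjustment over all of them, and the code was tested on simulated data. TMM factors, edgeR 4.0.16 and DESeq2 1.42.0 on the recovered reads, other pseudocounts and filters, no variance trend, a replicate block and leaving out each library were tried as alternatives. Groups and replicate numbers came from the labels. Deviations of same-numbered libraries from their group means correlated at 0.105, 0.231 and 0.125, and those of different numbers at -0.125 to 0.00687. Such deviations cancel out within a group, so that the second range follows in part from the first. Whether the numbers pair the libraries is therefore not settled. Same-numbered libraries were compared in some descriptions above and in the replicate block, whereas the main fit was unpaired.

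The members and lists were chosen with earlier results of these data known. Members were named if they had 1 of the 10 largest increases or decreases among those that passed the adjusted p, averaged 50 or more and had groups that did not overlap, or 1 of the 5 highest means. The 3 shortest and 3 longest, the 5 with the highest ratio of si-SAM68 replicate 2 to the other libraries, the 2 nearest the limit and the lowest p-value of each position class were also named. Position classes that need the strand of the member could not be made, so position was taken against named loci alone, whose strand came by symbol from GENCODE v29 for 96.8% of 23187 loci. The match to GENCODE genes was added after seeing the data. It required both ends within 200 bases by distance to 1 of the 5 nearest named loci and an overlap of at least 50% of both spans. Tables were made with Python 3.11.15 and pandas 2.3.3.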

Additional observations from a re-analysis of the deposited data

How the results depend on the processing

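Of 374 values of the 22 called members named, 344 kept direction and call under the alternatives and 30 lost the call. With a minimum mean of 50, 125 members were regulated upwards and 69 downwards, and inside hosts 72 and 20. Without a filter, 86 and 53 passed the adjusted p, and 97 upwards without a variance trend. Leaving out each library gave 186 to 420 regulated upwards, 138 to 186 downwards, 32 to 174 and 25 to 106 past the adjusted p, and inside hosts 106 to 281 and 41 to 81. The replicate block, which pairs the libraries, gave 285 and 165 regulated and 130 and 68 past the adjusted p, all within 1.5 times, and changed no call of the named members (edgeR with the block lost GSHG0021258). Without both si-CTRL replicate 1 and si-SAM68 replicate 2 (chosen after seeing the data), 177 members were regulated upwards and 205 downwards, inside hosts 100 and 90, the median difference from the host was 0.044 (0.12 without si-SAM68 replicate 2 alone), and log2 fold changes turned to -0.44 (GSHG0144421), 0.023 (GSHG0032588), 0.022 (GSHG0133380), -0.75 (GSHG0100534) and -0.31 (GSHG0014896). Leaving out each library gave -0.0069 to 0.24 for GSHG0015314, -0.18 to 0.038 for GSHG0133380, -0.59 to 1.77 for GSHG0100534 and -0.26 to 1.05 for GSHG0014896. None of these members passed the test with all libraries, and the cause was not tested. The share of regulated members that were higher was 60.8%, against 50% with si-SAM68 replicate 2 left out, 71.4% without si-CTRL replicate 2 and 46.3% without both si-CTRL replicate 1 and si-SAM68 replicate 2. Windows of 1 and 20 kb past a 3′ end held 188 and 819 members, against 536 at 5 kb. DESeq2 gave no adjusted p for 1365 members. Shares of all loci tested were taken only for the main fit and without si-SAM68 replicate 2.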
